A study of Mus musculus with 2 samples.

Results

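Mmp8, Mmp9, Ly6g, Retnlg, Prok2, Stfa2l1, Fpr1, Trem1 and Padi4 are 9 of the 26124 genes in the count matrices of spleen cells from 1 sickle cell disease (SCD) mouse and 1 wild-type mouse, and they were taken by symbol as genes of the gelatinase granule and of late neutrophils. Their level per neutrophil, and their order along maturation against Camp and Ngp, were compared between the animals. The wild-type animal was homozygous for Hbatm1Paz, heterozygous for Hbbtm1Tow and hemizygous for Tg(HBA-HBBs)41Paz and does not sickle, whereas the SCD animal (Berkeley model) was homozygous for all 3 alleles. Both thus share homozygous Hbatm1Paz, the human transgene and a mixed genetic background. Both were untreated and 12 to 16 weeks old. Spleen suspensions were lysed for red cells and negatively enriched for dendritic cells (DCs) before droplet-based 3′ single-cell RNA sequencing, so the share of neutrophils in a library is partly set by the enrichment. With 1 animal per genotype no difference could be tested. The 95% intervals given in parentheses cover counting error only, not the variation between animals.

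The wild-type library held 10845 barcodes with a median of 4991 unique molecular identifiers (UMIs, each a counted transcript molecule) and the SCD library 13447 with a median of 8596. After filtering, 9424 and 10636 cells were kept, and 22 barcodes occurred among the kept cells of both libraries. Mouse Hbb-bs stood at 2293 UMIs per 1000000 UMIs (CPM) in the wild-type library and at 20.8 CPM in the SCD library, in the direction of the labels, whereas Hba-a1 was counted at 915 and 792 CPM in both although both animals are labelled as homozygous for the alpha globin allele. Clustering without the 9 genes gave 7 neutrophil-like clusters, called neutrophils here, with 4373 wild-type and 7184 SCD cells. All 15 neutrophil markers, none of them a member, were detected in both. The neutrophils of the 2 animals lay mostly in different clusters. Cluster 0, led by Il1b, Csf3r and Fgl2, held 81.8% of wild-type and 3.37% of SCD neutrophils.

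Neutrophils fill their granules in sequence. Azurophil granule proteins such as Mpo and Elane are made first, in promyelocytes, then the specific granule proteins, among them cathelicidin (Camp) and neutrophilic granule protein (Ngp), then the gelatinase granule proteins, and the membrane receptors of mature cells come last. The members were taken as genes of the later part of this programme. Mmp8 and Mmp9 encode neutrophil collagenase and gelatinase B, which cleave extracellular matrix, Stfa2l1 encodes an intracellular cysteine protease inhibitor of the stefin family, Retnlg and Prok2 encode the secreted proteins resistin-like gamma and prokineticin 2, Ly6g, Fpr1 and Trem1 encode surface proteins, and Padi4 encodes the enzyme that citrullinates histones when neutrophil extracellular traps form.

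Each neutrophil was placed in 1 of 7 stages that use none of the members. The azurophil and the dividing stage hold cells with at least 0.5% of UMIs from azurophil granule genes or cell cycle genes. The other cells fall into stages 1 to 5 by falling share of Camp and Ngp UMIs, with boundaries at 7.28%, 0.264%, 0.0447% and 0%. Stage 5 thus holds only cells without a UMI of Camp or Ngp, and the boundary between stages 4 and 5 depends on depth. The wild-type animal had 86.2% (85.2 to 87.2) of its neutrophils in stages 3 to 5, against 30.3% (29.3 to 31.4) in the SCD animal. In the wild-type animal 8 cells were in the azurophil stage, 48 in the dividing stage, and 296, 250, 503, 482 and 2786 in stages 1 to 5. In the SCD animal the numbers were 130 and 382, and then 2211, 2282, 1890, 176 and 113. Median depth fell from 24010 UMIs per cell in the azurophil stage to 2299 in stage 5 in the wild-type animal, and from 24911 to 2127 in the SCD animal.

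The members were ordered along stages that Camp and Ngp themselves define, so both come early by construction, and a gene of equal level in all stages would also come after them. What the stages can show is the order among the members. Camp had its highest CPM in the dividing stage and Ngp in stage 1, and the mean stage of each member, weighted by its CPM over the dividing stage and stages 1 to 5 with the dividing stage as 0, was later than that of both. Ly6g, the surface antigen used to identify mouse neutrophils, was the earliest member, with its highest level in stage 1 at 1215 CPM in wild-type and 1134 CPM in the SCD animal. Mmp8 reached 4639 and 4116 CPM in stage 2, and Mmp9 3699 and 3448 CPM in the same stage. Prok2 and Padi4 were also highest in stage 2 in both, Prok2 at 64.7 and 81.1 CPM and Padi4 at 340.1 and 359 CPM. With Ly6g, 5 members thus had the same peak stage in both animals. Not all specific granule genes came before the members. In wild-type the mean stages of Ly6g and Mmp8 were 1.40 and 2.17. Those of Ltf and Lcn2 were earlier, at 0.95 and 1.17, but those of Pglyrp1, Itgam and Hp were later, at 2.29, 2.52 and 2.88.

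**Figure D1:**
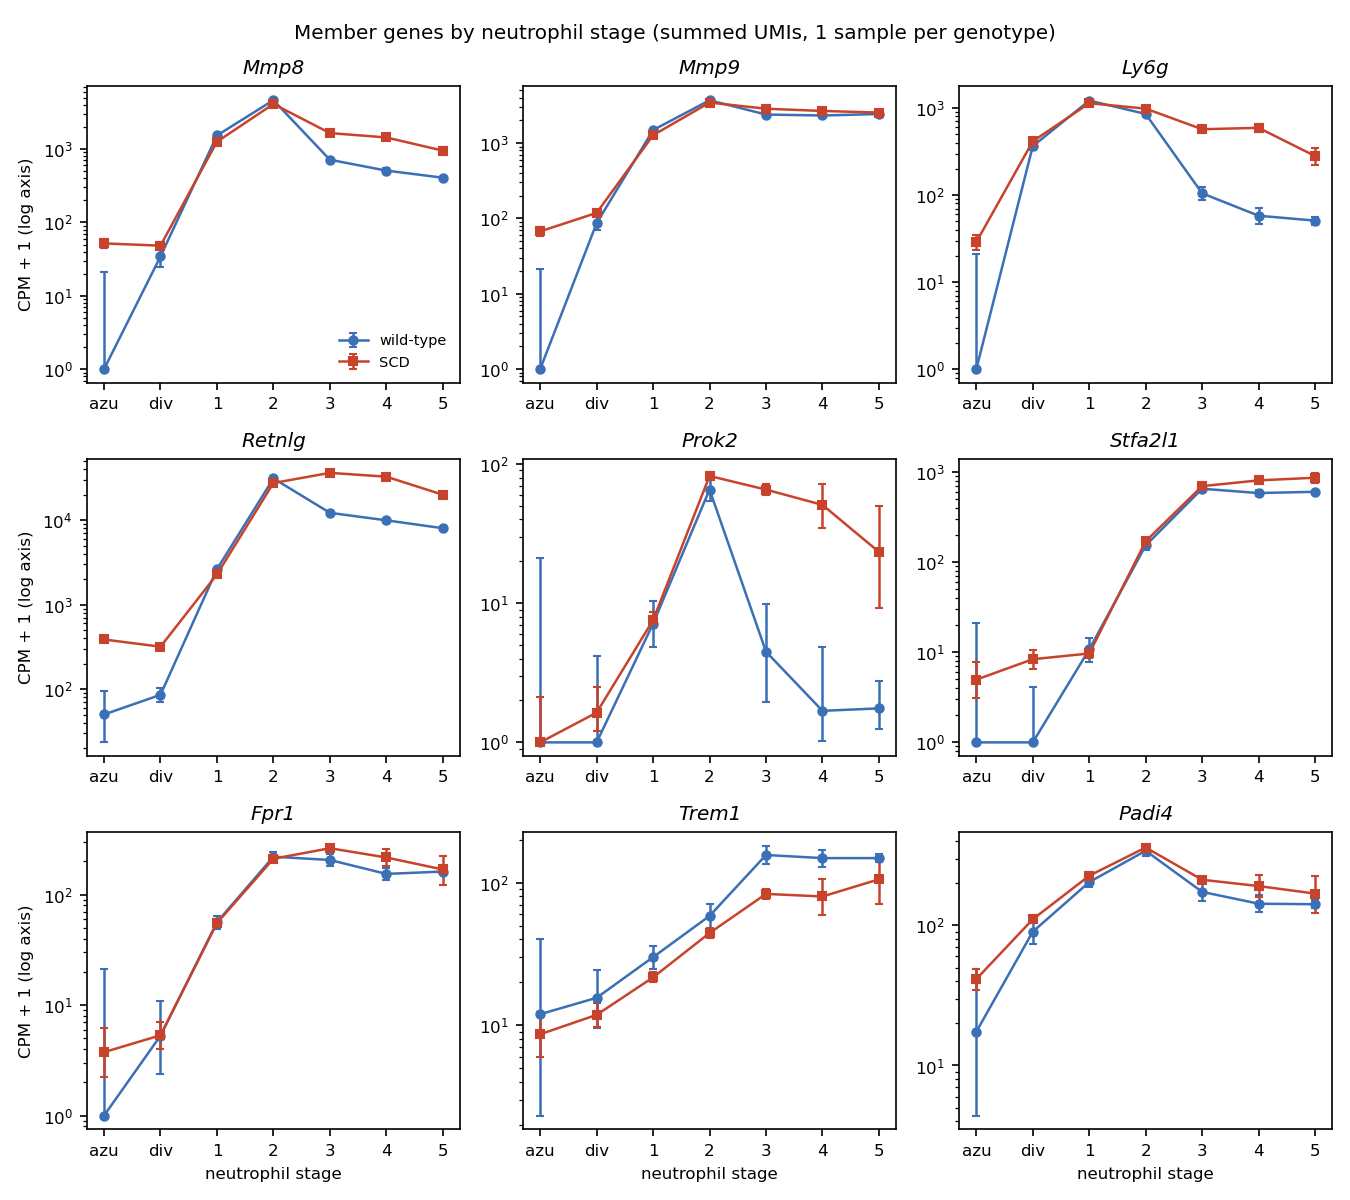
Level of each member (CPM + 1, log axis) in the azurophil (azu) stage, the dividing (div) stage and stages 1 to 5 of falling Camp and Ngp share, with 95% Poisson intervals, for the wild-type (circles) and the SCD (squares) animal. The curves lie close together in stages 1 and 2, apart from Trem1, which is 0.71-fold and 0.76-fold there in the SCD animal. They separate in stages 3 to 5 for Mmp8, Ly6g, Retnlg and Prok2 (higher in SCD). Trem1 separates further in stages 3 and 4 (lower in SCD). Smaller differences, all higher in SCD, lie in stages 3 and 4 for Mmp9, Fpr1 and Padi4 and in stages 4 and 5 for Stfa2l1. Retnlg also separates in the dividing and azurophil stages, and Stfa2l1 in the dividing stage. Mmp8, Mmp9 and Ly6g separate in the azurophil stage, which has 8 wild-type cells.

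In the dividing stage the wild-type level of Retnlg was 84.8 CPM and the SCD level 317 CPM, a ratio of 3.74 (3.06 to 4.62). Both levels lay within those of the other cell classes, 44.9 to 857 CPM in wild-type and 279 to 1482 CPM in the SCD library. The part of free neutrophil RNA in this ratio was not tested. Mmp8 and Mmp9 had no UMI in the 8 wild-type cells of the azurophil stage and 50.8 and 66.4 CPM in the SCD animal. These SCD levels also lay within those of the other SCD classes, 26.2 to 251 CPM for Mmp8 and 43.4 to 242 CPM for Mmp9. Retnlg rose from 2617 CPM in stage 1 to a peak of 31077 CPM in stage 2 in the wild-type animal. In the SCD animal it rose from 2276 CPM to 27395 CPM in stage 2 and was highest in stage 3, at 36136 CPM. Fpr1, the receptor for formylated bacterial peptides, was likewise highest in stage 2 in the wild-type animal (219 CPM) and in stage 3 in the SCD animal (262 CPM), but its wild-type levels in stage 2 (198 to 242) and stage 3 (205 CPM, 179 to 233) did not differ beyond counting error. Trem1, a receptor that amplifies inflammatory responses, and Stfa2l1 came last in both animals, with wild-type mean stages of 3.51 and 3.81 and SCD mean stages of 3.50 and 3.91. Stfa2l1 went from 9.76 CPM in stage 1 to 655 CPM in stage 3 in the wild-type animal and from 8.71 to 700.5 CPM in the SCD animal. No member was highest in stage 5 in the wild-type animal. Stfa2l1 (869 CPM, 761 to 988) and Trem1 (104 CPM, 69.4 to 151) were highest there in the SCD animal, but neither differed from stage 4 beyond counting error. Among all 11 genes the order by mean stage began with Camp, Ngp and Ly6g and ended with Trem1 and Stfa2l1 in both animals. Retnlg moved from place 7 in the wild-type to place 9 in the SCD animal, and Prok2 from place 4 to place 6, whereas Padi4 moved from place 6 to place 4 and Mmp9 and Fpr1 each moved 1 place earlier.

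**Figure D2:**
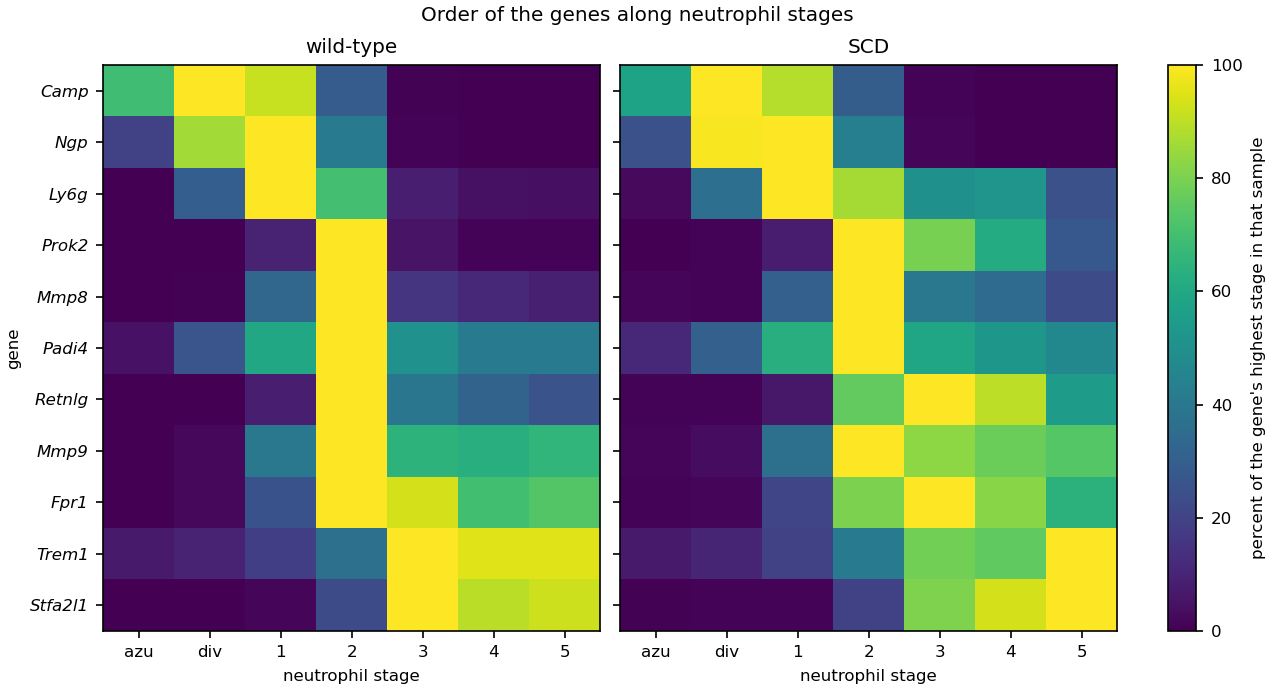
CPM of the 9 members, Camp and Ngp in each stage as a percentage of the gene's highest stage in that animal, with the genes in the order of their wild-type mean stage. Stage 5 of Ly6g stands at 4.10% of its peak in wild-type and 24.7% in the SCD animal, and stage 5 of Retnlg at 25.8% and 55.2%.

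Over all neutrophils, 5 of the 9 members had a higher CPM in the SCD animal, against 29.1% of the 2489 genes expressed at 50 CPM or more in either animal. Retnlg averaged 33.4 UMIs per cell in wild-type and 104.5 in the SCD animal, but the SCD neutrophils were also deeper, with a median of 6951 UMIs against 2453. On the CPM scale Retnlg was at 9174 and 12471, a log2 ratio of 0.44 (0.43 to 0.45). Ly6g stood at 428 and 871 CPM (log2 ratio 1.02, 0.99 to 1.06), Mmp8 at 1131 and 1824 CPM (0.69, 0.67 to 0.71), Padi4 at 174 and 233 CPM (0.42, 0.36 to 0.48) and Prok2 at 9.22 and 31.6 CPM (1.78, 1.53 to 2.03). Stfa2l1, at 372 CPM in wild-type and 136 CPM in the SCD animal, and Trem1, at 99.997 and 32.1 CPM, were lower, with log2 ratios of -1.45 (-1.50 to -1.40) and -1.64 (-1.74 to -1.54).

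Mmp9 was at 2148 and 1813 CPM (log2 ratio -0.24) and Fpr1 at 133 and 110 CPM (-0.27). Both signs turned with median-of-ratios scaling (0.16 and 0.13) and without S100a8, S100a9, Camp, Ngp, Ltf and Lcn2 in the total (0.087 and 0.060). Over all neutrophils these scalings move all genes alike, so genes just below 0 turn sign by construction. Both signs also turned when each cell was thinned to 1000 UMIs so that deep immature cells no longer weigh more (0.032 and 0.039). The median log2 ratio of the members was 0.42 and that of all expressed genes -0.40. At least 2-fold higher in the SCD animal were Ly6g and Prok2, against 2.45% of expressed genes, and at least 2-fold lower were Stfa2l1 and Trem1, against 21.3%. Trem1 passed the filter of 50 CPM only through its wild-type level, so its place in this count carries no weight. The call of Ly6g was lost with at least 1000 genes per cell (0.65) and with no upper limit on genes (0.96), and that of Stfa2l1 when thinned (-0.81). Thinning raised the log2 ratios of Ly6g to 2.13 and of Prok2 to 3.47. Mmp8 passed 2-fold when thinned (1.55), with median-of-ratios scaling (1.09) and without the 6 genes in the total (1.02), and Retnlg passed it when thinned (1.10). Prok2 is under 50 CPM in both animals and is not among those expressed genes, so 8 of the 9 members passed this filter.

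Matching the animals by stage moved most of these ratios. For this the CPM of a gene was averaged over the 7 stages in each animal and the log2 ratio of the 2 means was taken, so the stages where a gene is high weigh most in its ratio. On this scale, 8 of the 9 members, Prok2 among them, were higher in the SCD animal, against 23.7% of 2405 expressed genes, and the median log2 ratio was 0.28 against -0.18 for all expressed genes. Stfa2l1 went from -1.45 to 0.35 (0.27 to 0.44) and Fpr1 from -0.27 to 0.20 (0.08 to 0.33). Retnlg was at 0.90 (0.88 to 0.91), above its unmatched 0.44, but at 0.23 when matched by cluster. Ly6g came down to 0.60 (0.55 to 0.65, and 0.19 when matched by cluster), Mmp8 to 0.28 (0.25 to 0.31, but -0.064 when matched by cluster) and Padi4 to 0.24 (0.14 to 0.34, and 0.016 when matched by cluster). Mmp9 was at 0.06 (0.03 to 0.09), a sign that turned with at least 1000 genes per cell (-0.032) with 10 bins (-0.038) and when matched by cluster (-0.039). Trem1 was lower, at -0.69 (-0.90 to -0.48), but at -0.19 when matched by cluster. Prok2, at 1.57 (1.28 to 1.87), was the one member at least 2-fold higher, but it is not among the expressed genes, and the call was lost with at least 1000 genes per cell (0.71) and when matched by cluster (0.77). None of the 8 expressed members was at least 2-fold higher, against 0.166% of expressed genes, or 2-fold lower, against 1.75%. Retnlg passed 2-fold with median-of-ratios scaling (1.08), with 3 bins (1.09) and with stages weighted by wild-type cells (1.22), and Ly6g with the last of these (1.27).

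**Figure D3:**
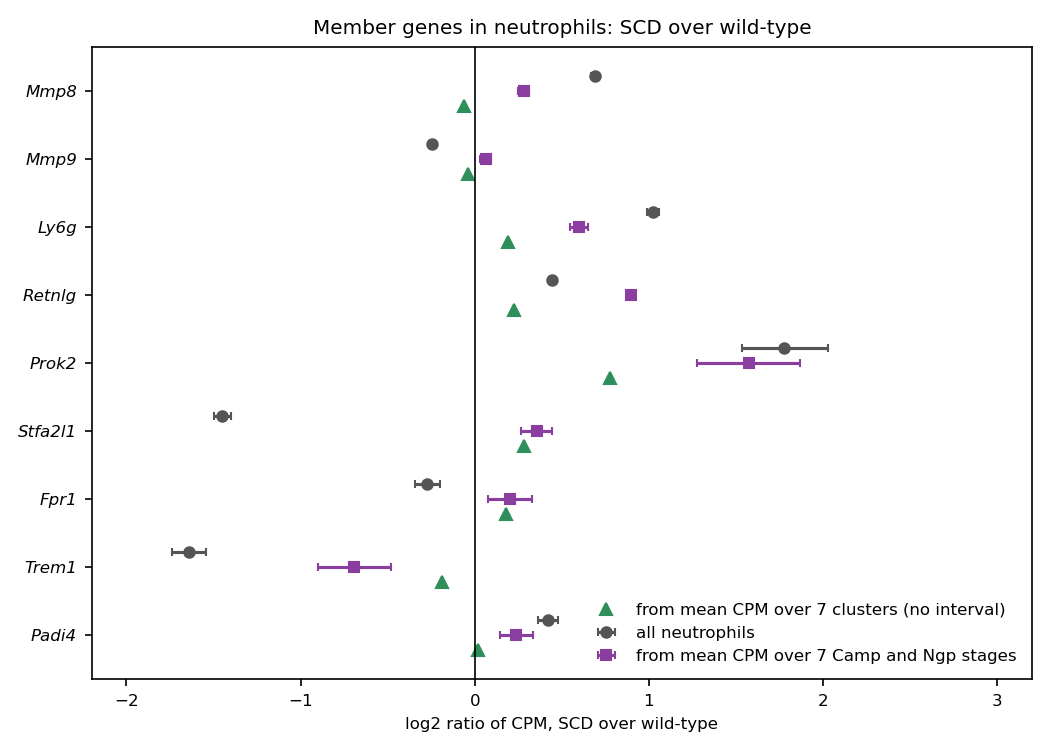
Log2 ratio of CPM, SCD over wild-type, for each member over all neutrophils (circles), from the mean CPM over the 7 stages (squares) and from the mean CPM over the 7 neutrophil clusters (triangles), with 95% counting intervals for the first 2. Stfa2l1 and Fpr1 lie left of 0 over all neutrophils and right of 0 after matching, and Mmp8 lies at -0.064 after matching by cluster.

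The stages did not contribute equally. In stage 2 no member differed by 2-fold in either direction, against 1.13% of 2027 expressed genes. Retnlg there was 0.88-fold (0.87 to 0.89), Mmp8 0.89-fold (0.87 to 0.91) and Ly6g 1.15-fold (1.09 to 1.21) of the wild-type level. In stages 3 to 5 summed, 4 members were at least 2-fold higher in the SCD animal, against 2.26% of 2525 expressed genes, and none was at least 2-fold lower, against 8.24%. Of these 4, Mmp8, Ly6g and Retnlg were over 50 CPM in both animals. Prok2 passed the filter on low values only through its SCD level, so it had to differ and its place in the count carries no weight. The other 8 members were over 50 CPM in both.

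Prok2, a secreted peptide that attracts myeloid cells, was counted 10 times in the 3771 wild-type cells of stages 3 to 5 and 449 times in the 2179 SCD cells, at 1.08 and 61.8 CPM, a ratio of 57.0 (30.7 to 120). The log2 ratio, 5.83, came down to 2.80 when cells needed at least 1000 genes. Ly6g stood at 57.7 CPM in wild-type and 561 CPM in the SCD animal, a ratio of 9.72 (8.88 to 10.7), and its log2 ratio of 3.28 came down to 2.52 when cells needed at least 1000 genes. Retnlg stood at 8829 and 35233 CPM, a ratio of 3.99 (3.96 to 4.02). Mmp8 stood at 460 and 1607 CPM, a ratio of 3.49 (3.37 to 3.62). The summed ratios also hold a difference in makeup, since the wild-type cells were mostly in stage 5 and the SCD cells mostly in stage 3. Within stages 3, 4 and 5 the ratios were 2.31, 2.83 and 2.34 for Mmp8, 2.97, 3.28 and 2.49 for Retnlg, and 5.49, 10.4 and 5.61 for Ly6g, so those of Mmp8 and Retnlg were below the summed ratio in every stage. The other members differed less: Fpr1 was 1.54-fold (1.44 to 1.65), Padi4 1.43-fold (1.33 to 1.54), Mmp9 1.18-fold (1.15 to 1.198) and Stfa2l1 1.18-fold (1.13 to 1.22) of the wild-type level. Clusters 0, 4 and 5 mostly made up these stages, as given below. Within them Mmp9 was 0.957-fold (0.902 to 1.02), 0.967-fold (0.898 to 1.04) and 0.905-fold (0.861 to 0.953). Padi4 was 0.601-fold (0.432 to 0.814), 0.919-fold (0.680 to 1.27) and 0.845-fold (0.716 to 1.003). Only Mmp9 in cluster 5 and Padi4 in cluster 0 were thus below 1 beyond counting error. The median log2 ratio of the 2525 expressed genes in these stages was -0.40. Fpr1 passed 2-fold with median-of-ratios scaling (1.02), which moves all genes alike. The log2 ratio of Stfa2l1, 0.23, turned to -0.10 when cells needed at least 1000 genes. Trem1 was lower, at 82.8 CPM against 148 CPM (0.56-fold, 0.51 to 0.61).

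At an equal depth of 1000 UMIs per cell, which left out 46 wild-type and 12 SCD neutrophils, the typical cell of stages 3 to 5 differed as well. The median cell held 4 UMIs of Retnlg in the wild-type animal, with 10th and 90th percentiles of 0 and 20, and 23 UMIs in the SCD animal, with percentiles of 1 and 65. A UMI of Ly6g was found in 3.92% (3.32 to 4.59) of wild-type and 27.9% (26.0 to 29.8) of SCD cells, and without thinning in 8.06% and 50.2%. A UMI of Mmp8 was found in 27.5% and 53.1% of thinned cells, and one of Mmp9 in 87.0% and 90.5%. Cells with a UMI of at least 5 of the 9 members made up 4.19% (3.57 to 4.88) of wild-type and 17.2% (15.7 to 18.9) of SCD cells in stages 3 to 5, but 34.1% (28.3 to 40.4) and 33.7% (31.8 to 35.7) in stage 2. The members together took 4.11% and 3.68% of all UMIs in stage 2, and 1.28% and 4.16% in stages 3 to 5, where Retnlg alone made up 68.9% and 84.8% of the members' UMIs.

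Stages 3 to 5 were made up of different clusters in the 2 animals. Cluster 0 made up 94.9% of the wild-type cells of these stages and 10.6% of the SCD cells. Cluster 4, led by Wfdc17, Ifitm1 and Csf3r, made up 3.66% and 48.4%, and cluster 5, led by Cstdc4, S100a6 and Ccl6, 1.46% and 40.6%. Within cluster 5 Retnlg was at 51088 CPM in wild-type and 51729 CPM in the SCD animal, a ratio of 1.01 (0.999 to 1.03). Within cluster 0 it was at 7814 and 7289 CPM, a ratio of 0.93 (0.90 to 0.96). In clusters 1 and 2 the ratios were 1.01 (0.98 to 1.04) and 0.95 (0.94 to 0.96). Retnlg was higher in the SCD animal in the other 3, at 9679 and 18523 CPM in cluster 4 (ratio 1.91, 1.85 to 1.99), 76.4 and 513 CPM in cluster 7 (6.71, 5.62 to 8.08) and 6086 and 15676 CPM in cluster 21 (2.58, 2.46 to 2.70), where called doublets made up 25.9% of wild-type and 70.5% of SCD cells.

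Mmp8 had ratios of 0.93 (0.80 to 1.07) in cluster 0, 0.85 (0.81 to 0.90) in cluster 5 and 1.54 (1.30 to 1.84) in cluster 4, and of 2.94 (2.14 to 4.16) in cluster 7, from 39 and 1106 UMIs. The cluster 7 levels of Retnlg and Mmp8 lay within those of the other cell classes of each library. Ly6g was higher in the SCD animal in clusters 0, 4 and 5, at 94.1 against 48.2 CPM in cluster 0, 255 against 50.3 CPM in cluster 4 and 880 against 577 CPM in cluster 5. Prok2 had 7 and 2 UMIs in cluster 0, at 0.81 and 3.92 CPM (ratio 4.86, 0.49 to 25.5), 0 and 52 in cluster 4, and 39 and 628 in cluster 5, where the ratio was 1.40 (1.01 to 1.98). In an alternative added after the stages had been examined, the CPM of each member was averaged over the 7 clusters in each animal and the log2 ratio of these means was taken, so clusters with a high CPM weigh most. It was -0.064 for Mmp8, -0.039 for Mmp9, 0.19 for Ly6g, 0.23 for Retnlg, 0.77 for Prok2, 0.28 for Stfa2l1, 0.18 for Fpr1, -0.19 for Trem1 and 0.016 for Padi4. The sign for Mmp8 rests on this weighting, since its ratio was above 1 in clusters 4, 7 and 21 and below 1 in clusters 0, 1, 2 and 5. Trem1 was 1.14-fold (0.90 to 1.41) in cluster 0, 0.95-fold (0.66 to 1.40) in cluster 5 and 0.73-fold (0.52 to 1.05) in cluster 4 of the wild-type level, all within counting error of 1. Il1b, the inflammatory cytokine that leads cluster 0, was at 3504 CPM in wild-type and 1181 CPM in the SCD cells of stages 3 to 5, and the immediate early genes Fos and Dusp1 were at 619 and 1283 CPM against 44.7 and 190 CPM. The part of these differences in the members' levels was not tested.

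**Figure D4:**
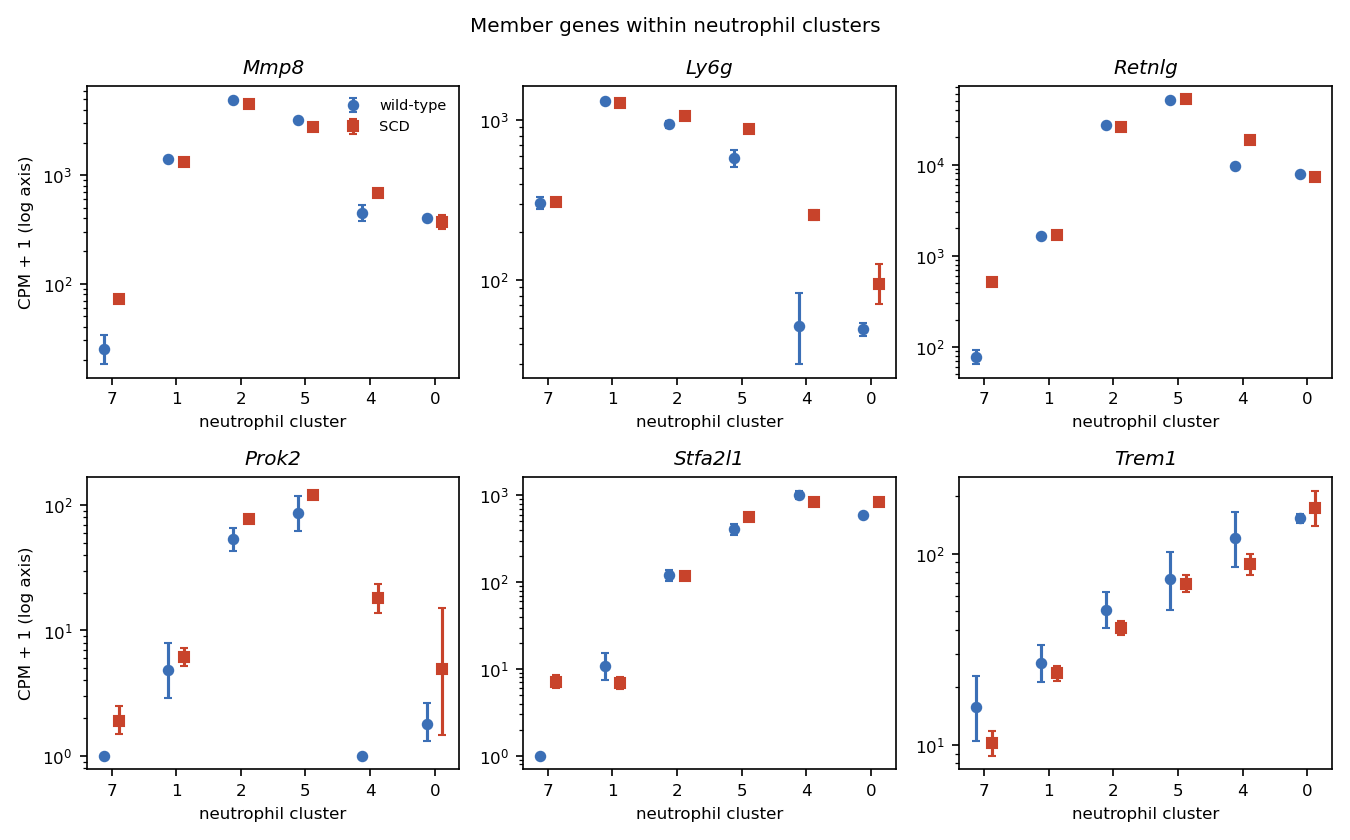
CPM + 1 (log axis) of 6 members in 6 of the 7 neutrophil clusters, ordered from cells with azurophil and cycle genes (cluster 7) to cells with Il1b (cluster 0), with 95% Poisson intervals for the wild-type (circles) and the SCD (squares) animal, where points at 1 have no UMI and no interval. Retnlg lies at like levels in both animals in clusters 1, 2, 5 and 0 and higher in the SCD animal in clusters 7 and 4.

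Some specific granule transcripts were also higher in the SCD cells of stages 3 to 5. Camp, which defines the stages, was at 64.9 CPM in wild-type and 541 CPM in the SCD cells, and Ltf, the iron-binding protein lactoferrin, at 28.1 and 166 CPM. Within stages 3 and 4 the ratios of Camp were 1.95 and 1.08, and stage 5 holds no Camp by construction, so the summed levels also reflect the makeup of the stages. Whether the cells of the 2 animals were equally mature was not tested. Most other cell classes of the SCD library also held more neutrophil RNA, measured as S100a8 and S100a9 together. These were at 5655 CPM in wild-type and 32339 CPM in SCD plasmacytoid DCs, the highest of the other SCD classes. Erythroid cells were the exception, at 9666 and 6876 CPM, with Retnlg at 857 and 296 CPM but Camp at 123 and 477 CPM. In plasmacytoid DCs thinned to 1000 UMIs, a UMI of Camp was found in 4.27% of wild-type and 33.4% of SCD cells, one of Retnlg in 7.76% and 20.9%, and one of Ly6g in 1.03% and 5.10%, at median depths of 11161 and 9258 UMIs. Ly6g CPM ranged from 12.5 to 101 in the other classes of the SCD library and from 0 to 10.3 in those of the wild-type library, against 561 CPM in the SCD neutrophils of stages 3 to 5. Elane and Prtn3, azurophil proteases of early cells, stood at 3.79 and 5.09 CPM in wild-type and at 38.2 and 55.8 CPM in the SCD cells of stages 3 to 5. The part of free RNA in the ratios was not tested.

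The promoters of Mmp8, Ly6g, Retnlg and Prok2 are shown as examples of the sequences searched, because most of the values above concern these genes. RefSeq (GRCm38.p6) start sites were matched for 8 of the 9 members. None was matched for Mmp9 in the set of promoters used, which does not mean that RefSeq lacks one. The 250 bases before each start were searched on both strands for TTGCNNAA (TTNNGCAA on the other strand), a form of the motif of C/EBP factors, and for GAGGAAG, a form of the motif of PU.1, which reads CTTCCTC on the other strand. Both factor families act in granulocyte development. The first motif was found for 3 members (Mmp8, Ly6g at the first of its 2 starts but not the second, and Retnlg) and in 9.55% of 27025 promoters, and the second for 2 members (Mmp8 and Ly6g) and in 10.4%. Capitals mark the matches, and the sequences run 5′ to 3′ on the strand of the gene. They lie at chr9:7558179-7558428 (plus strand) for Mmp8, chr15:75155011-75155260 (plus strand, the first of 2 starts) for Ly6g, chr16:48872358-48872607 (plus strand) for Retnlg and chr6:99726393-99726642 (minus strand) for Prok2.
Mmp8: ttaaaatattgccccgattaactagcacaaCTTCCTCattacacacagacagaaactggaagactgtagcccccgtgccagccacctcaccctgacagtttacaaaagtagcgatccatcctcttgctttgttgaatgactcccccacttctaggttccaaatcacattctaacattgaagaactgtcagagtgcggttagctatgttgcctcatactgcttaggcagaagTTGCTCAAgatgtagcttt
Ly6g: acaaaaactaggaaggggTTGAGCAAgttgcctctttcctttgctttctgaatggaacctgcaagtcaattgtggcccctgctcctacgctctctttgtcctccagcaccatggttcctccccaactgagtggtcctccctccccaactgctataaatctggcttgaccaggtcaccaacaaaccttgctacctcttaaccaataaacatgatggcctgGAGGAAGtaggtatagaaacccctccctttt
Retnlg: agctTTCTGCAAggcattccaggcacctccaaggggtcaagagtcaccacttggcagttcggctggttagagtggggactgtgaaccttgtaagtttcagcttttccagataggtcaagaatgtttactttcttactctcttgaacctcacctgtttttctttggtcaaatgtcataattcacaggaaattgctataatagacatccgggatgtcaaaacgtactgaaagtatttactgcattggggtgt
Prok2: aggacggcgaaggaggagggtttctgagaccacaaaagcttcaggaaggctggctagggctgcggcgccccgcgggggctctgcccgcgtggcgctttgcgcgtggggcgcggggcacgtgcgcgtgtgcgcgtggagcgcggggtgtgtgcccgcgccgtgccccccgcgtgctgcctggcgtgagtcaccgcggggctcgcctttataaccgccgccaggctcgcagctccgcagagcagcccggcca

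The whole genes lie on chromosome 9 from 7558456 to 7568485 (Mmp8), chromosome 15 from 75155240 to 75159126 (Ly6g), chromosome 16 from 48872621 to 48874496 (Retnlg) and chromosome 6 from 99711299 to 99726392 (Prok2) in GENCODE vM21 on the same build. Prok2 overlaps Gm26748 on the other strand and Trem1 overlaps AC241601.2. Stfa2l1, on chromosome 16 from 36156811 to 36161953, belongs to a family of near-identical stefin genes, and since reads that map to several genes are not counted, its counts and those of its relatives are uncertain.

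Other genes of the same programme were described from lists that hold no member. Of the 14 specific granule genes, all expressed, Ngp and Fcnb were at least 2-fold higher over all SCD neutrophils, against 2.45% of expressed genes, and none was 2-fold lower, but none was 2-fold different at matched stage. In stages 3 to 5 6 of the 11 expressed there were at least 2-fold higher, against 2.26% of expressed genes, but only Lcn2 and Cd177, with log2 ratios of 1.24 and 2.26, were over 50 CPM in both animals and not used for the stages. Ltf and Chil3 passed the filter only through their SCD levels. Camp and Ngp define the stages, and their ratios were 1.95 and 1.61 in stage 3, which held most of the SCD cells, and 1.08 and 0.84 in stage 4. Itgam, an integrin subunit, and Hp, haptoglobin, were at -0.40 and -0.077. All 6 azurophil genes were at least 2-fold higher over all neutrophils, but Ctsg and Ms4a3 passed the filter only through their SCD levels. Mpo, Elane, Prtn3, Ctsg and Ms4a3 define a stage and cannot be read at matched stage. Serpinb1a, which does not define it, went from a log2 ratio of 1.10 to 0.12. Of 14 expressed genes for late receptors and secretory vesicle proteins, 10 were at least 2-fold lower over all SCD neutrophils, against 21.3% of expressed genes, among them Cxcr2, the receptor that releases mature neutrophils from marrow (log2 ratio -1.83), Csf3r, the receptor for granulocyte colony-stimulating factor (-2.42), and Il1b (-3.63). At matched stage only Il1b of these 14 remained at least 2-fold lower (-1.199). In stages 3 to 5, where 2.26% of expressed genes were 2-fold higher and 8.24% lower, 1 of 15 was higher, Mmp25, a membrane-anchored matrix metalloproteinase (1.47), and 1 was lower, Il1b (-1.57).

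Of the 10 partners and inhibitors, 5 were expressed. Tyrobp, the adaptor through which Trem1 signals, was lower with Trem1 over all neutrophils, at 6632 CPM in wild-type and 2495 CPM in the SCD animal. Timp2, an inhibitor of matrix metalloproteinases, was at 141 and 302 CPM in stages 3 to 5 (log2 ratio 1.10), and Lcn2, which binds Mmp9, at 1094 and 2586 CPM (1.24). The prokineticin receptors Prokr1 and Prokr2 had 2 UMIs or fewer in all neutrophils of either animal. Of the 28 relatives of the members, 25 were found and 6 passed the filter over all neutrophils. In stages 3 to 5 Stfa1 and Ly6c2 were at least 2-fold higher (1.16 and 2.27) and Ly6e 2-fold lower (-1.05) among the 7 that passed there. Of all expressed genes 2.26% were 2-fold higher and 8.24% lower in these stages. Retn, the resistin gene related to Retnlg, went the other way from it, at 63.5 CPM in wild-type and 33.4 CPM in the SCD cells of stages 3 to 5. Since Retn passed the filter of 50 CPM only through its wild-type level, its direction carries no weight.

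Most UMIs of the members came from neutrophils, from 84.9% (Fpr1) to 93.6% (Prok2) in wild-type and from 92.3% (Mmp8) to 96.5% (Stfa2l1) in the SCD animal. Examples chosen after their values were seen show levels in other classes that were high relative to S100a8 and S100a9, whose UMIs in other classes give a measure of neutrophil RNA there. Mmp8 was at 93.3 CPM (87.4 to 99.4) in wild-type and 176 CPM (170 to 182) in SCD monocytes, and its ratio to S100a8 and S100a9 was 5.07 and 6.17 times that in neutrophils. A UMI of Mmp8 was found in 8.97% and 14.7% of thinned monocytes, against 0.439% and 3.83% of thinned conventional DCs. Such ratios in monocytes were not particular to Mmp8, since they were 5.50 and 4.25 for Fpr1, 5.36 and 4.54 for Trem1 and 4.92 and 2.95 for Padi4. Mmp9 was at 103 CPM (99.2 to 108) in wild-type and 72.8 CPM (66.5 to 79.5) in SCD conventional DCs, with ratios of 11.7 and 2.06. The SCD ratio did not stand out there. It was higher for Trem1 (2.58), Stfa2l1 (2.32), Fpr1 (2.26) and Retnlg (2.11), and lower for Mmp8 (1.63), Padi4 (1.07), Ly6g (0.96) and Prok2 (0.95). Fpr1 was at 76.5 CPM (56.4 to 101) in wild-type and 61.9 CPM (40.4 to 90.7) in SCD red pulp macrophages, with ratios of 19.4 and 21.0, from 48 and 26 UMIs.

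**Figure D5:**
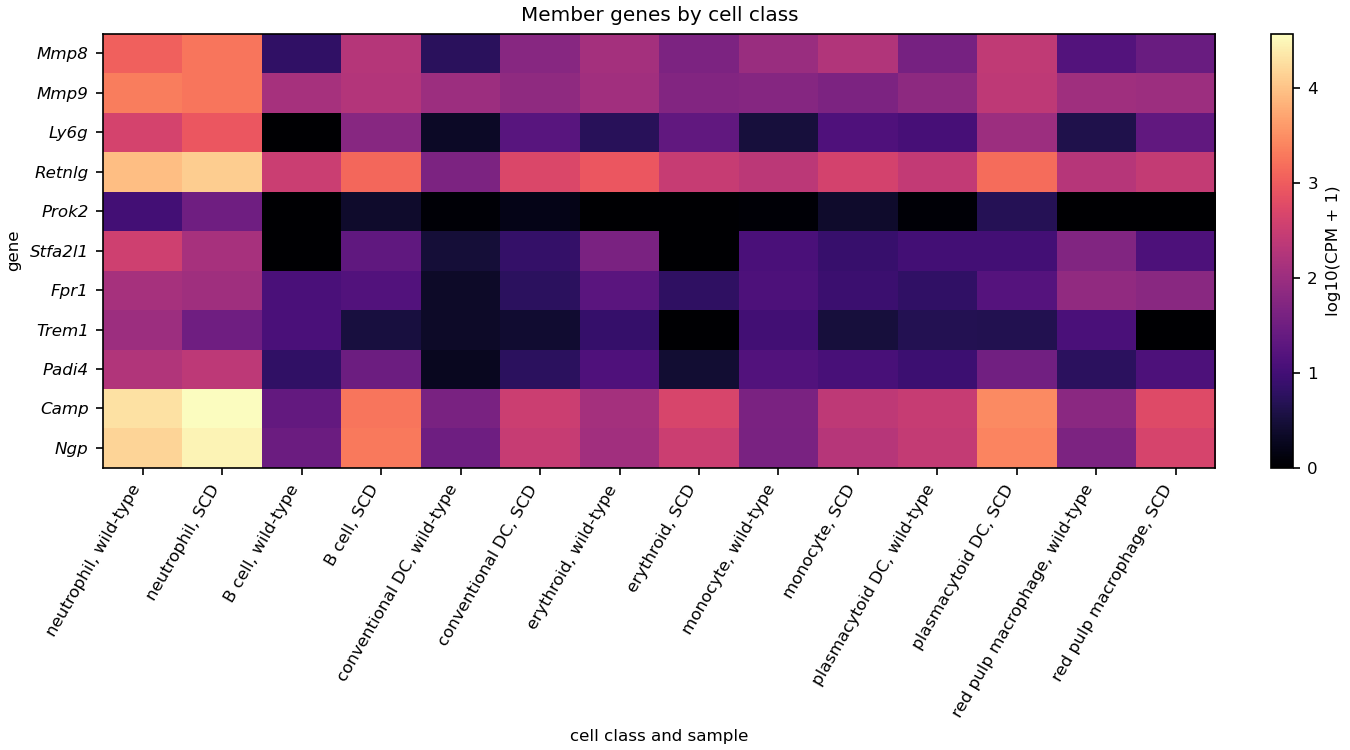
Level of the 9 members, Camp and Ngp as log10(CPM + 1) in each cell class of each animal. Neutrophils are brightest for every gene, Camp, Ngp and Retnlg are visible in all classes, and Mmp8 is brighter in wild-type monocytes than in wild-type conventional DCs.

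The genes whose profile over the 26 class and stage profiles of both animals was most like that of a member were found by Pearson's correlation of log2(CPM + 5), given as a description since the profiles share libraries. Stfa2l1 was most like Cstdc4 (r = 0.97), Trem1 like Ppp1r3b (0.97) and Cxcr2 (0.97), Padi4 like 9830107B12Rik (0.96), Ly6g like Ankrd22 (0.95) and Mmp25 (0.94), and Fpr1 like Selenon (0.94). Mmp9 was most like Tmem154 (0.92), Retnlg like Slfn4 (0.91), Mmp8 like Bmx (0.90) and Prok2 like Max (0.83). Bmx, a tyrosine kinase gene, was among the 3 closest genes for Mmp8, Mmp9 and Retnlg.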

How the data were processed

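Raw UMI counts per gene and cell were used as deposited by the authors. Per the labels and the methods, the authors prepared 10x 3′ v3.1 libraries on the same chip and made the counts with Cell Ranger 4.0.0 on GRCm38.p6. R 4.4, Seurat 3.2.3 and Scanpy 1.6.0 are also named in the submitters' processing notes. The counts are not normalized.

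Cells were kept with 500 to 5000 genes and less than 15% mitochondrial and 30% ribosomal UMIs, and genes were kept for clustering when found in at least 20 cells. Counts were scaled with scran 1.30.0 (R 4.3.3) and clustered in Scanpy 1.11.5 (2000 variable genes without the members, 30 components, 15 neighbours, Leiden resolution 1). Clusters were named from marker lists, with leading genes ranked at a pseudocount of 100 CPM and at least 1 own marker among the first 10, a rule set after the clusters were seen. 2 clusters (605 cells) stayed unnamed. Doublets called by Scrublet (3.82% and 2.28%) were kept. Levels are summed UMIs per 1000000 UMIs of a class, stage or cluster (CPM). Intervals are exact Poisson or Clopper-Pearson intervals, ratios have exact conditional intervals, and stage-matched ratios use the Poisson variance of the mean over stages, all at 95%. A gene counted as expressed at 50 CPM and 20 UMIs in either animal. The azurophil stage also needed at least 3 UMIs of its genes. Boundaries of stages 1 to 5 are quantiles of the Camp and Ngp share of non-member UMIs with both animals weighted equally. For single cells at equal depth, UMIs were drawn to 1000 per cell and shallower cells were left out. The code was tested on simulated data. Named genes are the members, Camp, Ngp, all genes of the lists and, for each member, the 3 genes with the highest correlation. Il1b, Fos and Dusp1 beside stages 3 to 5 were chosen after their values were seen. Members and lists were chosen with earlier results of these data known.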

Additional observations from a re-analysis of the deposited data

Results flagged for a closer look

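Cells outside the filters of the report held more member RNA in the SCD than in the wild-type library. In cells with over 5000 genes, the 9 members made up 0.0515% (0.0510 to 0.0521) of UMIs in 1222 SCD cells and 0.0148% (0.0142 to 0.0153) in 296 wild-type cells. Of these cells 13.7% and 4.73% had at least 2% of UMIs from S100a8 and S100a9. In cells past the mitochondrial or ribosomal limit, the members made up 0.0373% (0.0357 to 0.0389) of UMIs in 766 SCD cells and 0.0150% (0.0137 to 0.0164) in 408 wild-type cells. These values came from 1 library each, so no test was possible.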

How the results depend on the processing

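No paired analysis was possible because there was only 1 mouse of each genotype. The members higher in the SCD animal numbered 5 to 7 over all neutrophils in 14 alternatives, 6 to 8 at matched stage in 21, and 4 or 5 at least 2-fold higher in stages 3 to 5 in 15, Prok2 always among them. In the main analysis Prok2 passed the filter there only through its SCD level, so its place in the last count carries no weight. The 7 came from thinning, from a total without 6 abundant genes and from median-of-ratios scaling. Both of these scalings move all genes alike over all neutrophils, and median-of-ratios scaling brings the median of the expressed genes from -0.40 to 0. The 29.1% of the main analysis is therefore not the background of these counts, and no share of expressed genes is given here for the alternatives. The median log2 ratio over all neutrophils was 0.32 with at least 1000 genes per cell, 0.51 with neutrophils taken cell by cell, 0.82 with median-of-ratios scaling, 0.75 without S100a8, S100a9, Camp, Ngp, Ltf and Lcn2 in the total and 0.71 with cells thinned to 1000 UMIs. The stage-matched median was 0.24 with at least 1000 genes, 0.31 with no upper limit on genes, 0.34 with neutrophils taken cell by cell, 0.46 with median-of-ratios scaling, 0.33 without those 6 genes, 0.24 thinned, 0.37 with 3 bins, 0.16 with 10 bins (8 after ties), 0.46 weighted by wild-type cells, 0.32 with azurophil and dividing cells set apart at 1% (6 stages, since no wild-type cell was left in the azurophil stage) and 0.18 matched by cluster. In the wild-type animal the last stage was the highest for 1 member when thinned, for 2 with 3 bins and for 1 with stages by Ltf, Lcn2 and Chil3. In the SCD animal it was so for 1 member with at least 1000 genes, without those 6 genes and with stages by Ltf, Lcn2 and Chil3, and for 4 when thinned. Of 450 values for single members 293 stayed within counting error, 146 moved and 11 turned sign. Signs turned for Mmp9 over all neutrophils (0.16 with median-of-ratios scaling, 0.087 without those 6 genes, 0.032 thinned) and at matched stage (-0.032 with 1000 genes, -0.038 with 10 bins, -0.039 by cluster), for Fpr1 over all neutrophils (0.13, 0.060 and 0.039 in the same order), for Mmp8 by cluster (-0.064) and for Stfa2l1 in stages 3 to 5 with 1000 genes (-0.10). Over all neutrophils, the turns with median-of-ratios scaling and without those 6 genes come from a shift of all genes alike. The cause of the other turns was not tested. Without the azurophil stage, which held 8 wild-type cells, the stage-matched median was 0.27. The share of expressed genes past 2-fold went from 23.7% to 19.7% over all neutrophils and from 1.91% to 2.70% at matched stage with genes of at least 10 CPM. Removing cells with shared barcodes, called doublets or cluster 21 left these counts of members as they were. Prok2 rests on 10 wild-type UMIs in stages 3 to 5, which limits its ratio there.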
